A study of Mus musculus with 14 samples.

Results

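The calcium and integrin binding genes Cib1, Cib2, Cib3 and Cib4 were followed across mouse liver libraries with and without Mettl3 in hepatocytes. They were the 4 genes of that name among 54446 genes measured. Cib3 was chosen by its value in knockouts against controls in these same libraries, where it is among the largest differences, and the other 3 were taken as its named relatives. Liver RNA came from C57BL/6 animals aged 5 weeks. The 6 controls carried a floxed Mettl3 gene, and the 8 knockouts carried the same floxed gene with Alb-Cre, a recombinase under the albumin promoter, which is active in hepatocytes. There was no group with Alb-Cre alone, and the labels state neither sex nor that each library was a separate animal, so p-values measure the spread between libraries.

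The Cib genes encode small calcium-binding proteins of the EF-hand type, a fold that changes shape when calcium binds. CIB1 was first known as a partner of the platelet integrin alpha-IIb and binds several kinases, while CIB2 and CIB3 are known in the inner ear as subunits that bind the mechanosensory channel proteins TMC1 and TMC2. The Mettl3 protein is the enzyme that places m6A, a methyl group on adenosines of mRNA, often within the core letters GGACT (with U for T in RNA).

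All 4 genes lie on the minus strand of GRCm38 (GENCODE M21). Cib1 (ENSMUSG00000030538) is at chr7:80227147-80232813, Cib2 (ENSMUSG00000037493) at chr9:54544794-54560218, Cib3 (ENSMUSG00000074240) at chr8:72204335-72212837 and Cib4 (ENSMUSG00000053194) at chr5:30485583-30545836. For each gene 100 bases before a RefSeq transcript start (GRCm38.p6, gene strand) are shown, because their CG content differs within the family. CG dinucleotides are in capitals; the search for CG covers both strands, since CG reads the same on each.
Cib1, chr7:80232806-80232905: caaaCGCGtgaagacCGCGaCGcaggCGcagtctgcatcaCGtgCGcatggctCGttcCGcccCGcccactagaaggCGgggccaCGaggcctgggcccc
Cib2, chr9:54560191-54560290: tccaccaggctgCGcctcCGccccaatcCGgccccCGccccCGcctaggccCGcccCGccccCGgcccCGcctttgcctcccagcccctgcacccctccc
Cib3, chr8:72212838-72212937: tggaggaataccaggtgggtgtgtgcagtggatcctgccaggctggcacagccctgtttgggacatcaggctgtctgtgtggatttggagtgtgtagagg
Cib4, chr5:30545837-30545936: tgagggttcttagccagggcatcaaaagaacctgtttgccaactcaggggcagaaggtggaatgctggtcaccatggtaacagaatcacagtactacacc
The Cib1 window holds 13 CG and the Cib2 window 9, while the Cib3 and Cib4 windows hold 0. Among 32851 RefSeq windows of the same length, 79.3% hold at least 1 CG, 9.45% hold at least as many as Cib1 and 22.2% at least as many as Cib2. RefSeq extends the Cib3 gene to base 72213086 and the Cib4 gene to base 30545845, so the Cib3 window lies inside the RefSeq gene and the Cib4 window partly inside it, and neither is the stretch before the outermost start. GGACT was searched on the transcript strand alone. It occurs at 2 places in the longest coding transcript of Cib1, Cib2 and Cib3 and at 0 in that of Cib4. The shorter coding transcripts of Cib1 hold 1 each, and the retained-intron transcript of Cib3 holds 3. The sites in the longest coding transcripts are shown, with the 5 letters in capitals, because they match the core of the motif that the Mettl3 complex methylates.
Cib1, base 163, 5′ UTR: gttgctacggGGACTgggcggggac
Cib1, base 520, coding: tgagctttgaGGACTtcctggacct
Cib2, base 251, coding: acaactaccaGGACTgcactttctt
Cib2, base 332, coding: tcgtcccgatGGACTacaggaagag
Cib3, base 41, 5′ UTR: tctccccacaGGACTgtactttctt
Cib3, base 491, coding: tgtccctggaGGACTtccaaaatat
Bases are counted from 1 at the transcript's 5′ end. The motif is common: of coding transcripts within 20% of the same length, 68.7% hold it for Cib1, 81.0% for Cib2, 50.9% for Cib3 and 60.5% for Cib4. A match is a description of letters, and methylation was not measured in these libraries.

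Each gene's value in a library was a normalised estimated read count. Depth ran from 11.1 to 33.8 M estimated reads per library (M, megareads). Mettl3 itself measured 199 to 263 in the controls against 76.9 to 122 in the knockouts. By Xist and Y-linked transcripts, replicates 1 to 4 of both groups were Y-positive, and controls 5 and 6 and knockouts 5 to 8 were Xist-high. In knockouts this class ran with depth, at 24.3 to 30.9 M estimated reads in Y-positive and 11.1 to 15.5 M in Xist-high libraries. Knockouts 3, 6 and 7 stood apart from the other libraries on the first principal component.

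Cib3, the channel-binding relative of CIB2, was low in every control and high in every knockout. Its values in controls 1 to 6 were 80.6, 300.3, 114, 254, 114 and 21.9. In knockouts 1 to 8 they were 3087, 2756, 3518, 3279, 1151, 3112, 2462 and 1506. The lowest knockout, number 5, lay well above the highest control, number 2, and knockouts 5 and 8 were the lowest of their group. The mean was 148 ± 107 in controls (SD, n = 6) and 2609 ± 857 in knockouts (SD, n = 8), which is a fold of 17.7 between means and a difference of 4.46 (SE 0.46) on the log2(value + 1) scale. These values chose the gene, so no test is given; over all 23554 genes tested, the knockouts lay wholly above the controls for 4.14% and wholly below them for 4.02%. The reads behind them were 14 to 442 estimated reads per control and 672 to 5824 per knockout.

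Relative to their means, the controls varied more than the knockouts, with a coefficient of variation of 72.5% against 32.9%. Leaving out each library in turn gave a log2 difference of 4.0 to 4.75, and the value was 4.29 without knockouts 3, 6 and 7. The difference was 4.26 among Y-positive libraries (4 controls, 4 knockouts) and 5.22 among Xist-high libraries (2 controls, 4 knockouts). Control 6, at 21.9, was 1 of those 2 controls, and leaving it out of the full set gave the lowest value, 4.0. In whole-liver RNA, a change in the number of cells of a type and a change in RNA per cell cannot be told apart.

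Ranked by log2 difference with a pseudocount of 1, Cib3 was number 5 of 2697 genes called higher at a limma adjusted p of at most 0.05. That contrast chose Cib3, so its place is a description and not a test. The rank depended on the pseudocount, at 9 with 0.5 and 12 with 0.1, with Tgm7 and Sprr1a then above it. The 3 genes just above it were Zbtb9 (5.00, SE 0.96), Gsta1 (4.88, SE 1.0) and Gm10925 (4.73, SE 1.23). The 3 just below were Tgm7 (4.37, SE 0.31), Sprr1a (4.36, SE 0.94) and Serpinb1a (3.96, SE 0.57). The control means of Zbtb9, Tgm7 and Sprr1a were 1.43, 3.74 and 1.39, under the value of 10 that the filter for testing asked for. These genes were thus tested through the knockouts, and their differences are descriptions with no test. Gsta1 encodes a glutathione transferase, and its knockout mean of 919 had an SD of 1355. The knockout SD also exceeded the mean for Gm10925 and Sprr1a. It was less than the mean for Cib3, as for Zbtb9, Tgm7 and Serpinb1a.

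**Figure D1:**
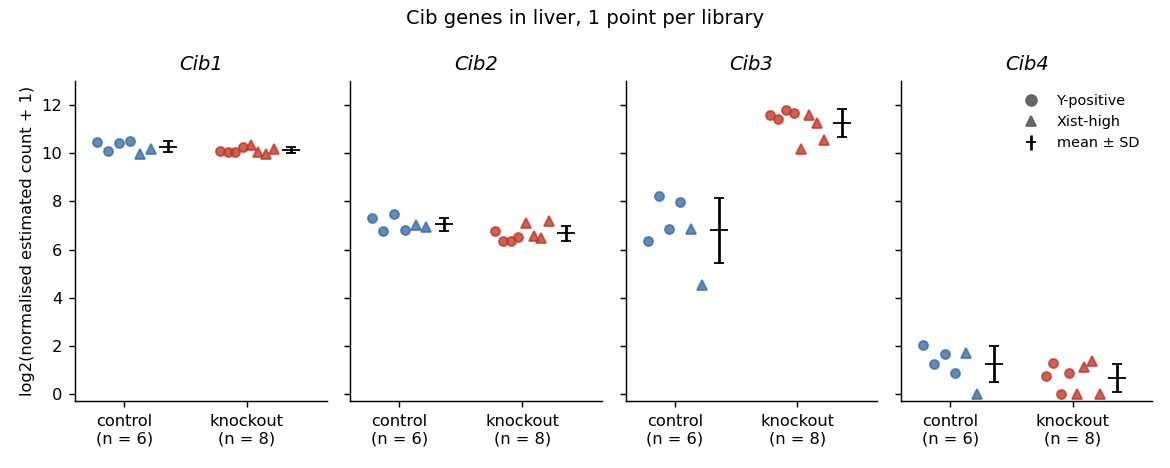
Value of each Cib gene (vertical axis, log2 of the normalised estimated count + 1) in 6 control and 8 knockout libraries; each point is 1 library, circles are Y-positive and triangles Xist-high, and bars give the mean ± SD of the log2 values. The Cib3 points of controls sit at values of 21.9 to 300.3 and those of knockouts at 1151 to 3518, while the control and knockout points of Cib1, Cib2 and Cib4 overlap.

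Cib1, the broadly expressed integrin and kinase partner, showed no such shift. Its values were 1001 at the lowest, 1255 at the median and 1441 at the highest in controls, and 1007, 1076 and 1294 in knockouts. The groups overlapped, although 7 of 8 knockouts lay below the control mean. The mean was 1245 ± 188 (SD, n = 6) in controls and 1118 ± 97.6 (SD, n = 8) in knockouts. The log2 difference of -0.15 (SE 0.10, 95% interval -0.36 to 0.07) did not pass (limma adjusted p = 0.325), and with libraries scaled to equal sums, which moved the median of all genes by 0.32, it turned to 0.18 (limma adjusted p = 0.110).

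Cib2, the hair-cell channel subunit, was measured at 107, 127 and 176 (lowest, median, highest) in controls. In knockouts the same values were 81.0, 93.4 and 147. Most knockouts, 6 of 8, were below the control mean, but knockouts 5 and 8 (137 and 147) lay among the controls. The log2 difference was -0.38 (SE 0.16, 95% interval -0.73 to -0.03), which did not pass after adjustment over all genes (limma adjusted p = 0.110). Without knockout 8 it was -0.46 and passed (limma adjusted p = 0.0475). No other single library's removal made it pass (limma adjusted p up to 0.236). With libraries scaled to equal sums the Cib2 difference was -0.055 (limma adjusted p = 0.805). Knockouts 5 and 8 were thus the lowest of their group for Cib3 and the highest for Cib2.

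Cib4 was barely detected. It had 0 to 3 estimated reads in each control, 11 in all, and 0 to 2 in each knockout, 6 in all. It was listed at 0 in control 6 and in knockouts 3, 5 and 8, and no fold is given because every library was at or under 3 reads. It did not pass the filter, a minimum value of 10 in 6 or more libraries, and the other 3 genes passed it in controls as well as in knockouts. The authors' deposited table, whose natural-log differences were converted to log2, gave -0.15 for Cib1 (q = 0.475), -0.38 for Cib2 (q = 0.115) and 4.47 for Cib3, and none for Cib4; of all genes in that table with a q, 17.1% were at or under 0.05.

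Levels were compared between the genes per kb of the longest coding transcript. In controls Cib1 led at 1189 ± 179 per kb (SD, n = 6), followed by Cib3 at 252 ± 183, Cib2 at 93.6 ± 18.7 and Cib4 at 2.12 ± 1.46. Cib3 and Cib2 were neighbours whose ranges overlapped, and Cib3 was above Cib2 in 5 of 6 controls. In knockouts Cib3 led at 4460 ± 1465 per kb (SD, n = 8), ahead of Cib1 at 1068 ± 93.2, Cib2 at 72.3 ± 17.6 and Cib4 at 0.930 ± 0.860. Cib3 was above Cib1 in 8 of 8 knockouts and 0 of 6 controls. This order depended on the transcript length used, since Cib3 has a coding transcript of 585 bases and a retained-intron transcript of 2014 bases, and the file sums over them. With the longest transcript of any type, a length chosen after the data were seen, Cib3 was 1295 ± 426 per kb in knockouts and above Cib1 in 6 of 8, and it was above Cib2 in 2 of 6 controls.

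As a share of the family's summed level per kb, Cib3 made up 15.6% ± 10.3 (SD, n = 6) in controls and 77.8% ± 8.97 (SD, n = 8) in knockouts. The control shares ran from 3.06% to 31.5% and the knockout shares from 59.6% to 84.9%. Cib1 held 78.0% ± 9.14 in controls and 20.7% ± 8.17 in knockouts, and its own level did not pass the test. The shares are fixed to sum to a whole, so they restate the values of Cib3 and are not a separate result.

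**Figure D2:**
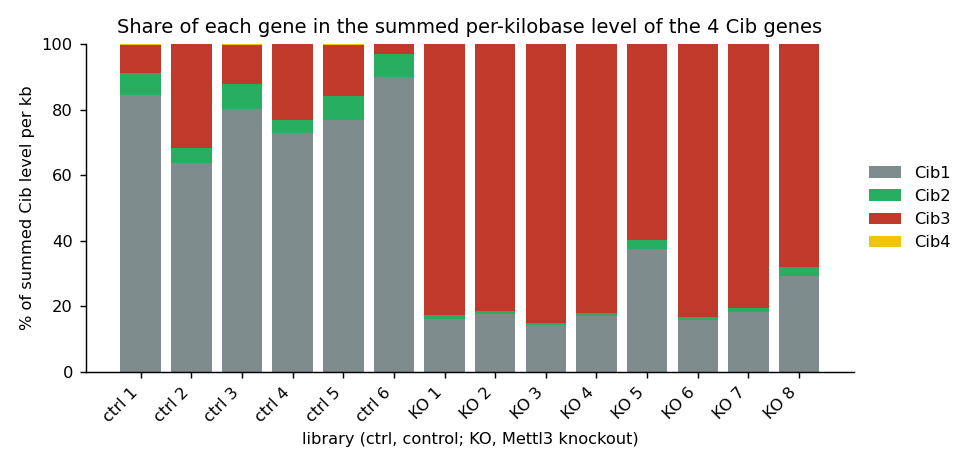
Share of the summed Cib level (percent, value per kb of the longest coding transcript) held by each Cib gene in each library; each bar is 1 library. Cib1 fills 63.8% to 89.9% of the control bars, and Cib3 fills 59.6% to 84.9% of the knockout bars.

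The Xist class gave a contrast within knockouts that the choice of Cib3 did not use. Cib3 was 3160 ± 322 (SD, n = 4) in Y-positive knockouts, from 2756 to 3518, and 2058 ± 895 (SD, n = 4) in Xist-high knockouts, from 1151 to 3112. The groups overlapped through knockout 6. The log2 difference of -0.72 missed the threshold (exact permutation test, two-sided, p = 0.0857, adjusted p = 0.257 over 3 tests, where 0.0286 is the smallest p that 4 against 4 allows). Leaving out each knockout in turn gave -0.96 to -0.48. The -0.96 came without knockout 6, whose removal ends the overlap, so no p is drawn from it. Depth ran with the class, and its part in the difference cannot be told apart.

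For Cib2 the same contrast was 0.34 (exact permutation p = 0.2) and for Cib1 it was 0.02 (exact permutation p = 0.8). The control classes gave Cib3 means of 187 ± 107 (SD, n = 4) and 68.1 ± 65.4 (SD, n = 2). Whether the knockout difference itself depended on class was tested by an interaction term, which passed for 0.0552% of all genes. It was 0.95 (SE 0.78, limma adjusted p = 0.847) for Cib3, 0.42 (SE 0.33, limma adjusted p = 0.846) for Cib2 and 0.32 (SE 0.19, limma adjusted p = 0.83) for Cib1. None of the 3 passed.

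Markers of liver cell types moved between the groups in which Cib3 differed. Over all genes tested 11.5% were called higher and 11% lower. Of 6 hepatocyte markers, 5 were lower and 0 higher in knockouts, with control sums of 687451 to 838786 and knockout sums of 357425 to 677091. Of 6 cholangiocyte markers, 3 were higher and 0 lower, with control sums of 697 to 1247 and knockout sums of 1073 to 3527. The 3 were Sox9, Epcam and Spp1, while Krt19, Krt7 and Cftr did not pass. Spp1 was the largest part of the sums, with means of 553 in controls and 1389 in knockouts, and Krt19 had means of 125 and 108. The Epcam call was lost without knockouts 3, 6 and 7 (limma adjusted p = 0.186). The endothelial list had 0 higher and 2 lower of 6, the stellate cell list 0 and 1 of 6, and the Kupffer cell and lymphocyte lists 0 and 0 of 6, as had the platelet list over the 3 of 6 genes tested. Without knockouts 3, 6 and 7 the calls of the endothelial marker Kdr and the stellate marker Colec11 were lost (limma adjusted p = 0.151 and 0.115). Scaled to equal sums the counts were 2 lower for hepatocytes and 3 higher for cholangiocytes, the endothelial list had 0 and 0, the stellate cell list turned to 1 higher and 0 lower, and the lymphocyte and platelet lists had 1 higher each. That scaling took the counts over all genes from 2697 higher and 2583 lower to 7321 and 839. After quantile normalization 0 hepatocyte markers were lower, 2 cholangiocyte markers were higher and 1 endothelial marker was lower, with no other call. No marker was at 0 in every library. Cholangiocyte sums in knockouts 1 to 8 were 1455, 1226, 3078, 1073, 1427, 2646, 3527 and 1593, beside the Cib3 values given above. The part of cell composition in the Cib3 difference was not tested beyond these values.

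The proteins that CIB proteins bind, and other EF-hand proteins, were described as 6 lists of 75 genes, of which 70 were tested. In knockouts 10 were called higher, 7 lower and 53 did not pass, which is 24.3% called against 22.4% of all genes (11.5% higher and 11% lower). The median log2 difference was 0.16 over the lists and 0.05 over all genes. Scaled to equal sums, the counts were 24 higher and 1 lower, so the split of directions depended on the scaling. Over all genes that scaling took the counts from 2697 higher and 2583 lower to 7321 and 839. Within Y-positive libraries 9 rose and 5 fell, beside 1740 and 1954 over all genes. Within the 6 Xist-high libraries the list counts were 0 and 0, beside 172 and 47 over all genes.

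Among the TMC channel genes, the known partners of CIB2 and CIB3, 2 of 8 rose, 1 fell and 5 did not pass. That is 37.5% called, against 22.4% of all genes. Tmc1, the pore protein of the hair-cell channel, was low in liver, at 13.9 to 35.9 with a median of 24.6 in controls and 5.99 to 18.0 with a median of 12.2 in knockouts. The ranges overlapped, and it fell by 0.98 on the log2 scale (SE 0.26, limma adjusted p = 0.0131). The call was lost without knockouts 3, 6 and 7 (limma adjusted p = 0.0525) and under equal sums (limma adjusted p = 0.0646). Tmc7 rose from 59.9 ± 18.4 (SD, n = 6) to 123 ± 36.9 (SD, n = 8), by 1.02 (SE 0.24, limma adjusted p = 0.00729). Tmc2, which works beside Tmc1 in the ear, differed by -0.36, which missed the threshold (limma adjusted p = 0.482), and was 0.0020 without knockouts 3, 6 and 7. This value and that of Tmc8 below were picked out after they were seen. Of 7 hair cell partners of the channel, 6 were tested and 0 passed at adjusted p of at most 0.05; the smallest p was that of Tmie, at -0.35 (limma adjusted p = 0.302), which was 0.04 without those libraries.

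Integrins, the partners that gave the family its name, rose in 3 of 18 alpha and 1 of 8 beta genes, and 0 fell. Over all genes 11.5% were called higher and 11% lower. Under equal sums the integrin counts that rose were 8 and 4, while those over all genes went from 2697 to 7321. Itga6, the laminin-binding alpha-6 subunit, rose most, from 90.9 to 377 in the mean, by 1.67 (SE 0.42, limma adjusted p = 0.00993), and by 0.90 without knockouts 3, 6 and 7 (limma adjusted p = 0.00317). Itgb5, which pairs with the alpha-V subunit, rose from 579 to 1029, by 0.84 (SE 0.11, limma adjusted p = 8.22e-05). Itga5, a fibronectin receptor subunit, rose from 318 to 546, by 0.78 (SE 0.12, limma adjusted p = 0.000355). Itga3 rose by 0.87 (SE 0.27, limma adjusted p = 0.0272), a call lost without control 2 (0.0631), control 4 (0.0702), knockout 3 (0.0525) or knockouts 3, 6 and 7 together (0.140, all limma adjusted p). Itga2b, the platelet subunit on which CIB1 was found, differed by -0.29 and missed the threshold (limma adjusted p = 0.283); it too was named after its value was seen. It was -0.62 within Y-positive libraries (limma adjusted p = 0.0237), 0.06 within Xist-high libraries and 0.03 under equal sums.

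Of 14 genes for proteins known to bind CIB1, 2 rose, 3 fell and 9 did not pass, which is 35.7% called against 22.4% of all genes. Plk3, a polo-like kinase, fell from 966 to 384 in the mean, by 1.27 on the log2 scale (SE 0.28, limma adjusted p = 0.00474), and control 6 stood above the other controls at 2053. Without control 6 Plk3 had a difference of -1.03 (limma adjusted p = 0.00752). Map3k5, the stress kinase ASK1's gene, fell by 0.58 (SE 0.14, limma adjusted p = 0.00925), and Itpr1, a calcium release channel, fell by 0.33 (SE 0.08, limma adjusted p = 0.0111). Both calls were lost under equal sums, at limma adjusted p of 0.245 and 0.999. Tmc6, a channel-family member that binds CIB1 in skin with Tmc8, rose from 108 ± 15.7 (SD, n = 6) to 150 ± 21.4 (SD, n = 8), by 0.48 (SE 0.12, limma adjusted p = 0.0109), while Tmc8 had a difference of 0.28 (limma adjusted p = 0.320) that was -0.09 within Xist-high libraries. Ptk2, the focal adhesion kinase, rose by 0.39 (SE 0.11, limma adjusted p = 0.0163), a call lost without knockouts 3, 6 and 7 (limma adjusted p = 0.0761). By the authors' sleuth test neither Ptk2 (q = 0.0828) nor Itpr1 (q = 0.0603) was at or under 0.05.

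Of 23 EF-hand relatives 19 were tested, and 3 were called higher, 3 lower and 13 did not pass. That is 31.6% called, against 22.4% of all genes. Ncald, a neuronal calcium sensor, rose by 1.03 (SE 0.16, limma adjusted p = 0.000480), and Hpcal1, another, rose by 0.69 (SE 0.15, limma adjusted p = 0.00332). The third of those counted as higher, the sensor Ncs1, had a median of 6.92 in controls and 15.2 in knockouts. Since 1 of 6 controls and 5 of 8 knockouts reached the filter's value of 10, Ncs1 was tested mainly through the knockouts, and its difference of 1.01 is a description with no test. Chp1, a calcineurin-like protein, fell by 0.45 (SE 0.12, limma adjusted p = 0.0112), a call lost under equal sums (limma adjusted p = 0.451). Ppp3r1, the calcineurin regulatory subunit, had a difference of -0.29 (SE 0.09, limma adjusted p = 0.0290) that turned to 0.04 under equal sums and missed the threshold without any 1 of controls 1, 2 and 5 or knockouts 1, 2 and 3 (limma adjusted p 0.0513 to 0.0662). The authors' sleuth test did not call Ppp3r1 either (q = 0.101). Scaled to equal sums, 6 of these relatives were higher and 0 lower, beside 7321 and 839 over all genes.

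**Figure D3:**
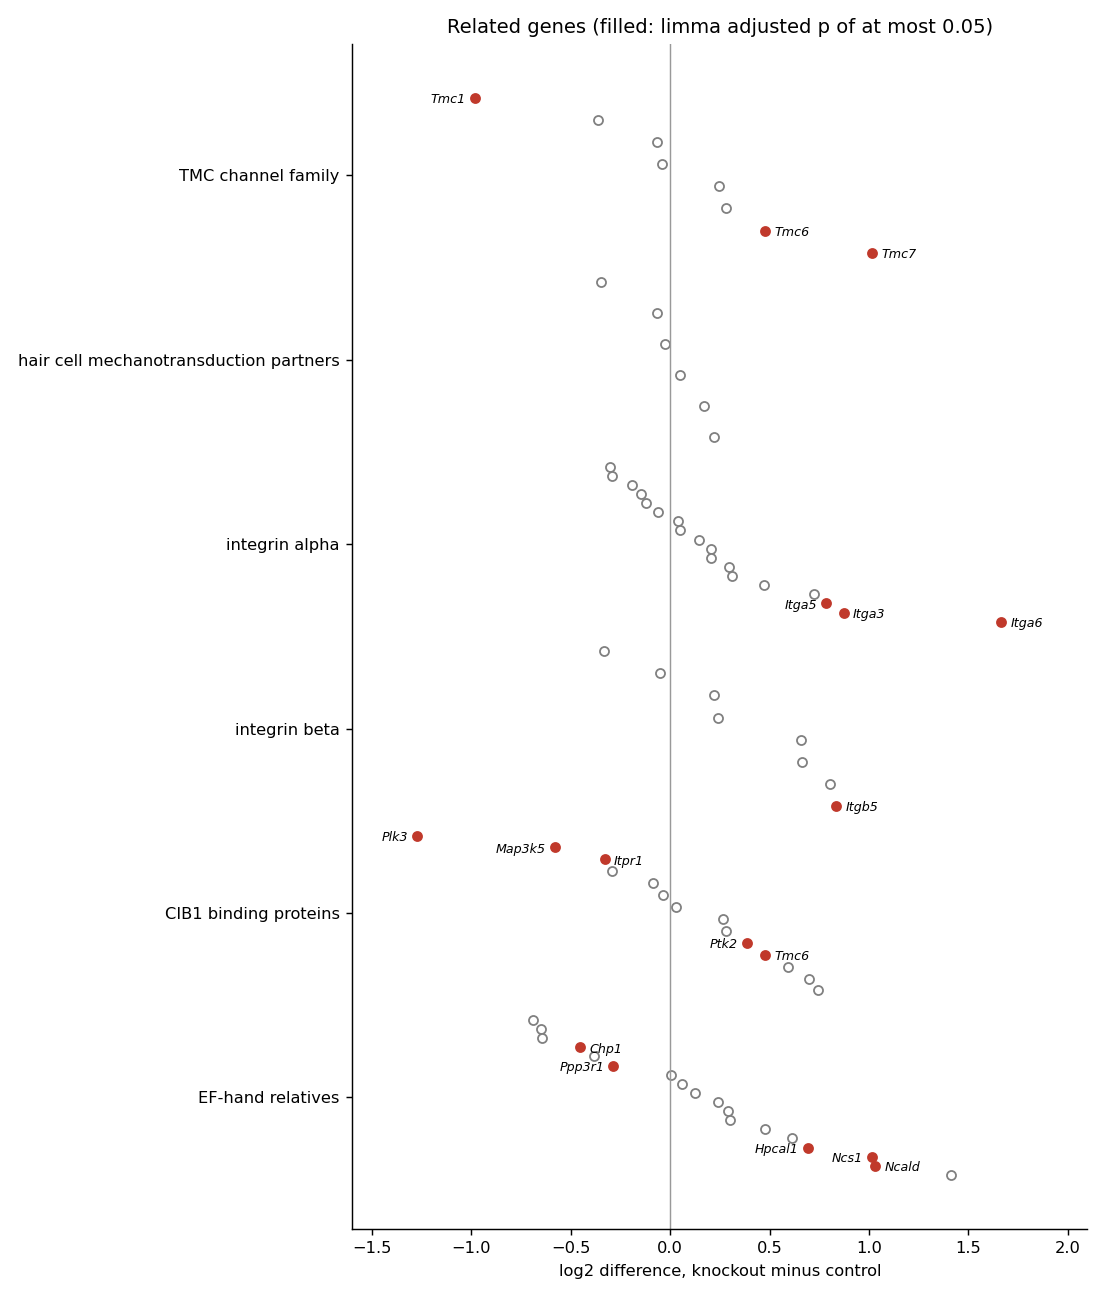
Difference between knockouts and controls (log2 of value + 1) for the tested genes of the 6 related lists reported here; each point is 1 gene, filled and named where the limma adjusted p was at most 0.05. Filled points lie on both sides of 0, from Plk3 at -1.27 to Itga6 at 1.67, and the hair cell partners have none. Ncs1, filled at 1.01, passed the filter mainly through the knockouts and is a description with no test.

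Genes that start within 100 kb of a Cib gene were compared to see whether the Cib3 difference extended along the chromosome. Over the 4 loci 31 genes were found, 21 were tested, 7 were called higher and 0 lower at adjusted p of at most 0.05, beside 11.5% of all genes called higher. Around Cib3, 3 of 7 were counted as higher, but 2 of them, Hsh2d and Gm16091, passed the filter through the knockouts, as 1 and 2 of 6 controls reached a value of 10, so these are described with no test. Hsh2d, an adaptor protein gene of blood cells, lies on the plus strand at chr8:72189638-72201527, so that its 3′ end faces that of Cib3. It measured 3.92 to 10.9 with a median of 7.92 in controls and 15.0 to 31.5 with a median of 27.5 in knockouts. The groups did not overlap, and the log2 difference was 1.60 (SE 0.24). Fam32a, which starts at -6.89 kb from Cib3 (negative is upstream), rose from 2508 to 3050, by 0.29 (SE 0.09, limma adjusted p = 0.0243). That call was lost without control 2 (0.0584), without control 6 (0.0594) and without knockouts 3, 6 and 7 (0.0526, all limma adjusted p). The authors' sleuth test did not call Fam32a (q = 0.104).

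Gm16091, a processed transcript with no coding annotation, had a median of 8.36 in controls and 12.5 in knockouts, and a log2 difference of 0.69 (SE 0.23). The other 4 tested neighbours of Cib3 did not pass: Ap1m1 at 0.18, Rab8a at 0.21, Tpm4 at 0.13 and the antisense gene Gm26586 at -0.19, the last turning to 0.13 under equal sums. Tpm4 was -0.22 within Y-positive libraries and -0.32 without knockouts 3, 6 and 7. Gm10282, Gm39197 and Gm11034, the last starting at -0.8 kb from Cib3, were below the filter.

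Around Cib1, which itself did not pass, 4 of 8 tested neighbours rose, beside 11.5% of all genes called higher. They were Prc1 (1.31), Ngrn (0.81), Sema4b (0.75) and Gdpgp1 (0.49), with limma adjusted p of 0.0198, 5.23e-05, 0.00132 and 0.0472, and were named after their values were seen. Prc1, a mitotic spindle protein gene, lost its call without knockouts 3, 6 and 7 (limma adjusted p = 0.0963), and Gdpgp1 lost its call without any 1 of controls 1, 2, 5 and 6 or knockouts 1 to 5, 7 and 8 (limma adjusted p 0.0550 to 0.111). Gdpgp1 starts at -0.05 kb on the opposite strand and so shares the CG-rich start region of Cib1 shown above. Around Cib2 and Cib4, 0 of 2 and 0 of 4 tested genes passed, beside 22.4% of all genes called in either direction.

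**Figure D4:**
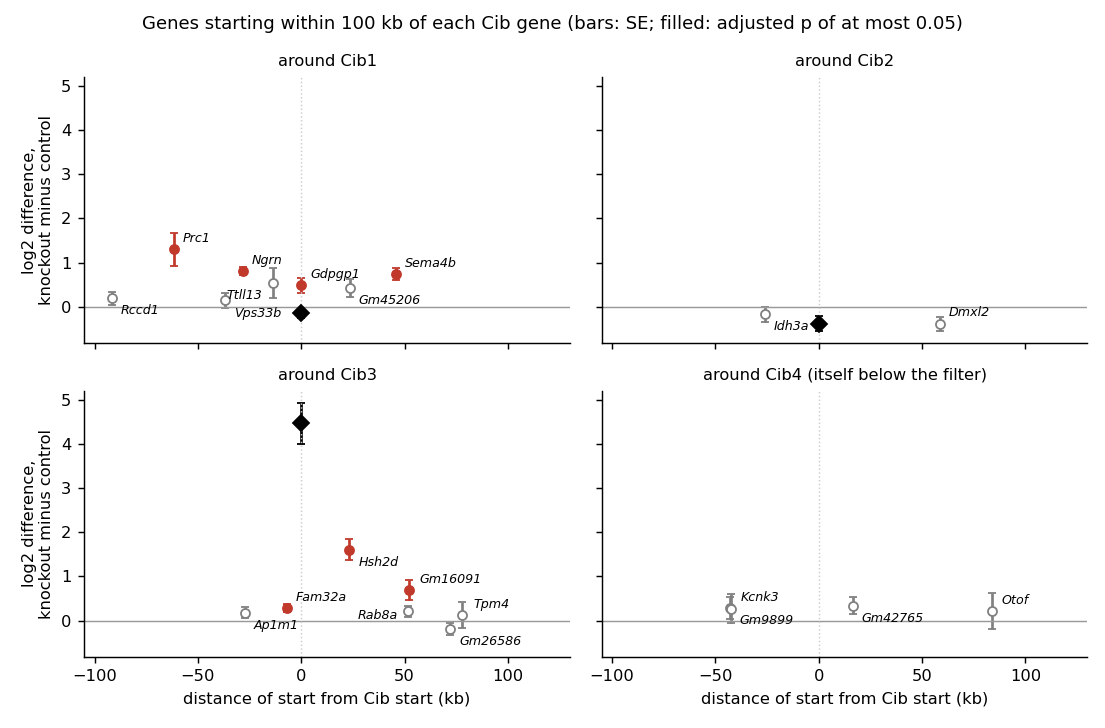
Difference between knockouts and controls (log2 of value + 1, bars are the SE) against the distance of each tested gene's start from that of the Cib gene (kb, negative is upstream); diamonds mark the Cib genes and filled circles a limma adjusted p of at most 0.05. Hsh2d at 1.60, which passed the filter through the knockouts, is the highest circle, below Cib3 at 4.46. Gm16091, filled at 0.69, passed the filter in the same way, and both are descriptions with no test.

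The genes whose values followed Cib3 most closely were sought among 10552 protein-coding genes with a mean above the median. The correlations below are the highest of that many and so are descriptions, without a p. Over the 8 knockouts the closest was Sirt5, a mitochondrial deacylase, with Pearson r 0.98 and Spearman rho 0.98. Clcf1, a cytokine, had r 0.97 and rho 0.93, and Nptn, a cell adhesion protein, r 0.95 and rho 0.98. Sox9, a transcription factor of bile duct cells, had r 0.95 and rho 0.71. The low values of knockouts 5 and 8, both shallow Xist-high libraries, are common to these points. Knockouts 6 and 7 were Xist-high too, with Cib3 at 3112 and 2462. Knockout 7 had 11.5 M estimated reads, against 12.4 M in knockout 8, so neither class nor depth alone set knockouts 5 and 8 apart. Without knockouts 5 and 8 r was 0.94 for Sirt5, 0.90 for Nptn, 0.78 for Clcf1 and 0.48 for Sox9, so the relation of Sox9 rested on them.

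Over the 6 controls the same genes did not all follow Cib3, since r was -0.78 for Sirt5, 0.15 for Clcf1, 0.79 for Nptn and 0.87 for Sox9. The 5 genes closest to Cib3 within controls were Rad17, Bach1, Ftsj3, Nsd1 and Ssb, with r of 0.99, 0.99, 0.99, 0.98 and 0.98 and rho of 0.94, 0.89, 1, 0.83 and 0.94. Without controls 2 and 6, the farthest from the median, r over the 4 left was at least 0.90 for each. Over knockouts these had r of -0.03, 0.78, 0.20, 0.65 and -0.10. None of these 5 was among the genes closest over knockouts.

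**Figure D5:**
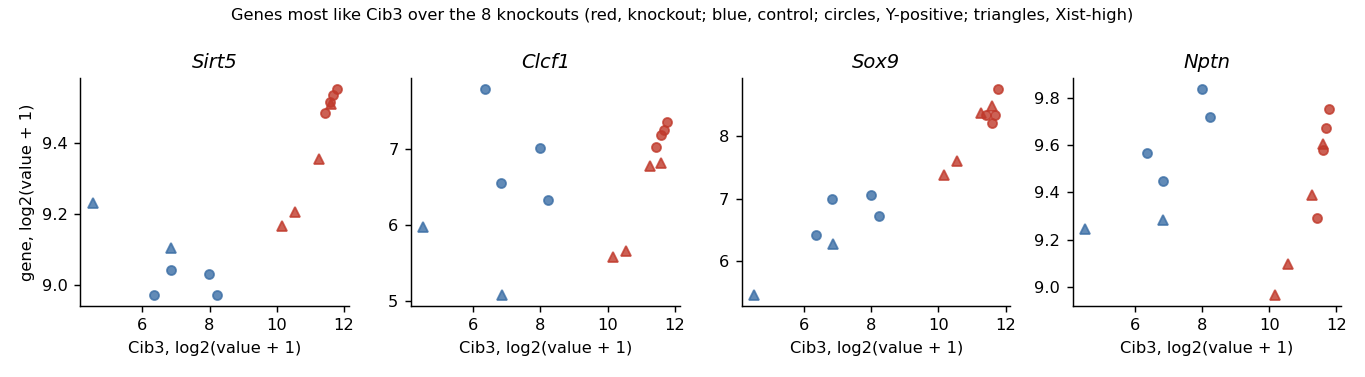
log2(value + 1) of Cib3 (horizontal axis) against 4 of the 5 genes most like it over the 8 knockouts (vertical axis, 1 panel each); each point is 1 library of the 6 controls or 8 knockouts. Knockouts 5 and 8 lie to the left of the other knockouts in each panel, and the control points of Sirt5 slope the opposite way, with r -0.78.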

How the data were processed

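Per the labels, RNA was extracted with Trizol from frozen liver and made into libraries with a Takara SMARTer stranded total RNA kit; the strand setting of the counting is not given in the sources used here. Per the submitters' processing notes, reads were processed with kallisto and sleuth on mm10. The signal values that the authors deposited were estimated counts per gene divided by 1 factor per library, as read from the values. The deposited change is a natural log of control over knockout, and the authors gave a p-value and a q-value for 27865 genes. The gene symbols, a column of other kind, were deposited by the authors too. The 75859 lines were reduced to 54446 genes. Depth was the sum of values divided by the worth of 1 read, and the shallow libraries are the least precise.

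The design named a count test for counts; since the values are not counts, limma 3.58.1 in R 4.3.3 was fitted to log2(value + 1) with a trended prior, for the 23554 genes that reached a value of 10 in 6 or more libraries. Adjustment was by Benjamini-Hochberg over all of them, and genes at or under 0.05 were called. The fit was tested on simulated data. The members, lists and tests were chosen with earlier results of these data known. Named genes were the called members of each related list (at most 3 in each direction, or the smallest p), genes within 100 kb of Cib3, the 5 most like it over each group, and the 3 on each side in rank; 2 of these are not reported here, and counts include them. Alternatives covered pseudocounts, filters, threshold, scaling, class, depth, left-out libraries and a replicate block.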

Additional observations from a re-analysis of the deposited data

Results flagged for a closer look

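Of 96 groups of library values examined for a single far library, 4 stood out, and chance flags about 1 in 20 groups. Plk3, a kinase that binds CIB1, measured 2053 in control 6, against 955 in the nearest control. Ptk2, the focal adhesion kinase, measured 125 in control 3, against 112 in the nearest control. Ppp3r1, an EF-hand relative, measured 660 in knockout 8, against 544 in the nearest knockout. Itga2b, the platelet integrin subunit, measured 133 in knockout 5, against 90.4 in the nearest knockout. None of the 4 Cib genes had such a library in either group.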

How the results depend on the processing

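Of 1510 values recomputed under another setting, 1272 kept their direction and their side of the threshold, or moved within the spread or within 1.5 times for counts. At a threshold of 0.01 the counts were 1311 higher and 1358 lower over all genes, 6 and 3 over the related lists, and 3 higher near the Cib genes. Under equal sums they were 7321 and 839, 24 and 1, and 13 higher. Y-positive libraries alone gave 1740 higher over all genes and 3 near the Cib genes, and Xist-high libraries alone 172 and 47, 0 and 0, and 0. Without knockouts 3, 6 and 7, 3 genes near the Cib genes were higher and 1 lower.

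Directions turned for Cib1 under equal sums (0.18) and in Xist-high libraries (0.065), for Ppp3r1 (0.043), Gm26586 (0.13) and Itga2b (0.032) under equal sums, for Itga2b (0.058) and Tmc8 (-0.088) in Xist-high libraries, and for Tmie (0.037), Tmc2 (0.0020) and Tpm4 (-0.32) without knockouts 3, 6 and 7. Tpm4 also turned with log2 depth as a covariate (-0.10), in Y-positive libraries (-0.22) and with the replicate block (-0.011). The cause was not tested.

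Leaving out 1 library gave -0.21 to -0.10 for Cib1, -0.46 to -0.30 for Cib2, 4.0 to 4.75 for Cib3, 2189 to 2863 higher and 2039 to 2792 lower over all genes, 8 to 14 and 6 to 8 over the related lists, and 4 to 7 and 0 to 1 near the Cib genes (4 without control 6, 1 without knockout 6). The class difference of Cib3 ran from -0.96 to -0.48.

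Same-numbered libraries share only a number: 5 of 6 pairs had correlated deviations over 0.1, and 2 of 6 controls correlated best with their own number. With the replicate block Cib1 was -0.13 and Cib2 -0.44, neither called (limma adjusted p = 0.50 and 0.0932), and 4 genes near the Cib genes were higher. With it 2031 genes were higher and 1928 lower over all genes and 9 and 7 over the related lists, and Itpr1, Ptk2, Fam32a, Prc1 and Gdpgp1 missed the threshold (limma adjusted p = 0.0533, 0.0794, 0.0744, 0.0678 and 0.0879).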
